A study of Mus musculus with 23 samples.

Results

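The genes described here encode the nuclear subunits of oxidative phosphorylation, the mitochondrial machinery that uses oxygen to make ATP. They were taken by name alone: every protein-coding mouse gene whose symbol starts with Ndufa, Ndufb, Ndufc, Ndufs or Ndufv and a digit, with Uqcr, with Cox4 to Cox8 or with Atp5, together with Sdha, Sdhb, Sdhc, Sdhd, Cyc1 and Cycs. Assembly factors (Ndufaf genes) were left out. Of 37620 gene identifiers, 86 met this rule, and no measured value entered it. They comprise 37 genes of complex I (NADH dehydrogenase), 4 of complex II (succinate dehydrogenase), 9 of complex III (cytochrome bc1, counting Cyc1), the cytochrome c gene Cycs, 18 of complex IV (cytochrome c oxidase) and 17 of complex V (ATP synthase). Some of these names reach beyond the core enzymes. Ndufa4, grouped here with complex I by its name, has since been assigned to complex IV, and Ndufa4l2 is its hypoxia-inducible relative. Cox7a2l helps join complexes into supercomplexes, and Atp5s is a coupling factor rather than a structural subunit.

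In the inner mitochondrial membrane, complexes I and II take electrons from NADH and succinate. The electrons pass through ubiquinone to complex III, through cytochrome c to complex IV and from there to oxygen, and the proton gradient built on the way drives complex V. A few core subunits are made from mitochondrial DNA and all others from nuclear genes, which are known to be switched on together by factors such as NRF1, GABPA, YY1 and the estrogen-related receptors with PGC-1 coactivators. Several complex IV subunits exist as a general form and a form restricted to heart and skeletal muscle, lung or testis. In melanoma, the coactivator gene Ppargc1a, a target of the melanocyte factor Mitf, is known to raise this program in a subset of tumours.

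Gene expression was read as RNA sequencing counts in 23 libraries of mouse melanomas that arose after exposure to ultraviolet light. The groups were HPN lung metastases (2 libraries, genotype Nme1+/- / Nme2+/-), HPN lymph node metastases (7 libraries, same genotype), HPN primaries (7 libraries, same genotype) and HP primaries (7 libraries, Nme1wt / Nme2wt). The products of Nme1 and Nme2 are enzymes that balance nucleotide pools, and Nme1 was the gene first described as suppressing metastasis. As background, the published HP model carries a hepatocyte growth factor transgene and lacks the Ink4a tumour suppressor, which all 4 groups would then share. The labels give neither alleles beyond Nme1 and Nme2 nor the strain, age or sex. Nor do they say that the primaries came from separate animals, so the p-values below measure the spread between these samples, which may in part be technical. Title numbers of HPN tumours were read as animals. Nodes 7a (cervical) and 7b (inguinal) therefore share an animal and were summed in the fits and averaged in each mean, which left 6 node samples.

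Gene counts came to 18870759 to 89481553 per library. Levels are counts per 1000000 gene counts with TMM scaling across libraries (CPM below), and changes are log2 differences with standard error (SE) from edgeR's quasi-likelihood test, called at a Benjamini-Hochberg adjusted p under 0.05 over all genes tested. Nme1 had a lowest, median and highest level of 5.3, 11.3 and 13.1 CPM in HPN primaries, against 7.69, 13.2 and 29.8 CPM in HP primaries, so the ranges overlapped. Nme2 counts were very low, at 0.0698, 0.231 and 0.407 CPM in HPN primaries, against 0.313, 0.404 and 0.877 CPM in HP primaries. Melanocyte markers marked every library (the sum of 7 markers ran from 4507 CPM in node 5 to 61470 CPM in HPN primary 5). Skin keratinocyte markers summed to 2285 to 6009 CPM in HPN primaries 1, 3 and 4 and to 4065 to 14080 CPM in HP primaries 1, 3, 4 and 6, against at most 812.9 CPM in every other library, while B and T cell markers summed to 210.9 to 1628 CPM in the nodes. Lung 4 stood apart in heart muscle markers, at 759.9 CPM against at most 6.43 CPM elsewhere, and in lung alveolar markers, at 7138 CPM against at most 12.8 CPM. In tissue RNA of this kind, fewer cells of a type and less RNA per cell cannot be told apart. HP primary 5 and node 5 stood apart for the genes described here, and the values that rest on them are given with and without them. Node 5 also had the fewest gene counts (18870759) and the lowest share of entries in genes (25.0%). Of its uniquely aligned reads 66.1% lay outside genes, against at most 53.5% in any other library. The part of this in its low levels was not tested.

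Nearly all of the 86 genes were well expressed. The mean over samples was at least 3 CPM for 80 of them, with a median of 49.6 CPM among those 80, while 6 lay under 3 CPM. The 6 are all tissue-restricted forms of complex IV subunits: Cox6a2, Cox7a1, Cox8b, Cox4i2, Cox8c and Cox7b2. Cox8c had 3 counts and Cox7b2, a testis form, had 0 counts over all 23 libraries, and these 2 genes were not tested. Per kilobase of the principal transcript, the catalytic subunit of ATP synthase, Atp5b, stood highest at 389 CPM per kilobase, followed by Cox4i1, a regulatory subunit of complex IV, at 251.8 and the other large ATP synthase subunit, Atp5a1, at 229.5 CPM per kilobase. Cox8a (219.9) and the membrane ring gene Atp5g3 (195.1 CPM per kilobase) followed. Complex III was led by the hinge protein gene Uqcrh at 145.4 CPM per kilobase, complex I by Ndufa4 at 99.7 and complex II by its iron-sulfur subunit Sdhb at 74.3 CPM per kilobase. The lowest of complex I was Ndufb2 at 1.96 CPM per kilobase, which shares 2.6% of its exonic bases with another gene. This value rests on the transcript length used, the longest principal transcript of 4371 bases. Ndufb4, with a similar mean (9.89 against 8.56 CPM) and 971 bases, stood at 10.19 CPM per kilobase.

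The share of each complex in the summed level varied little between libraries. Complex I took 23.7 to 27.8% of the summed level of all 86 genes in each library, complex II 5.92 to 8.29%, complex III 10.1 to 12.4%, complex IV 14.5 to 19.3% and complex V 34.9 to 42.7%. The summed level itself varied more, as the plot by complex shows. It was 6491 and 6820 CPM in the lungs. Its lowest, median and highest values were 3161, 5212 and 6345 CPM in nodes, 4611, 6354 and 8264 CPM in HPN primaries, and 3962, 5037 and 9516 CPM in HP primaries. Both lungs lay above every node, and every other pair of groups overlapped. The mean was 6656 ± 233 CPM in lungs (SD, n = 2), 4862 ± 1092 CPM in nodes (n = 6), 6615 ± 1289 CPM in HPN primaries (n = 7) and 5720 ± 1909 CPM in HP primaries (n = 7). Over the 22 samples the coefficient of variation of the 80 expressed genes had a median of 33.9%. It was 31.3% for 12434 protein-coding genes with a mean of at least 3 CPM, which were not matched further by level. The flavoprotein subunit of complex II, Sdha, was the steadiest of the 80 at 15.4%, and its highest library had 1.76 times the level of its lowest.

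**Figure D1:**
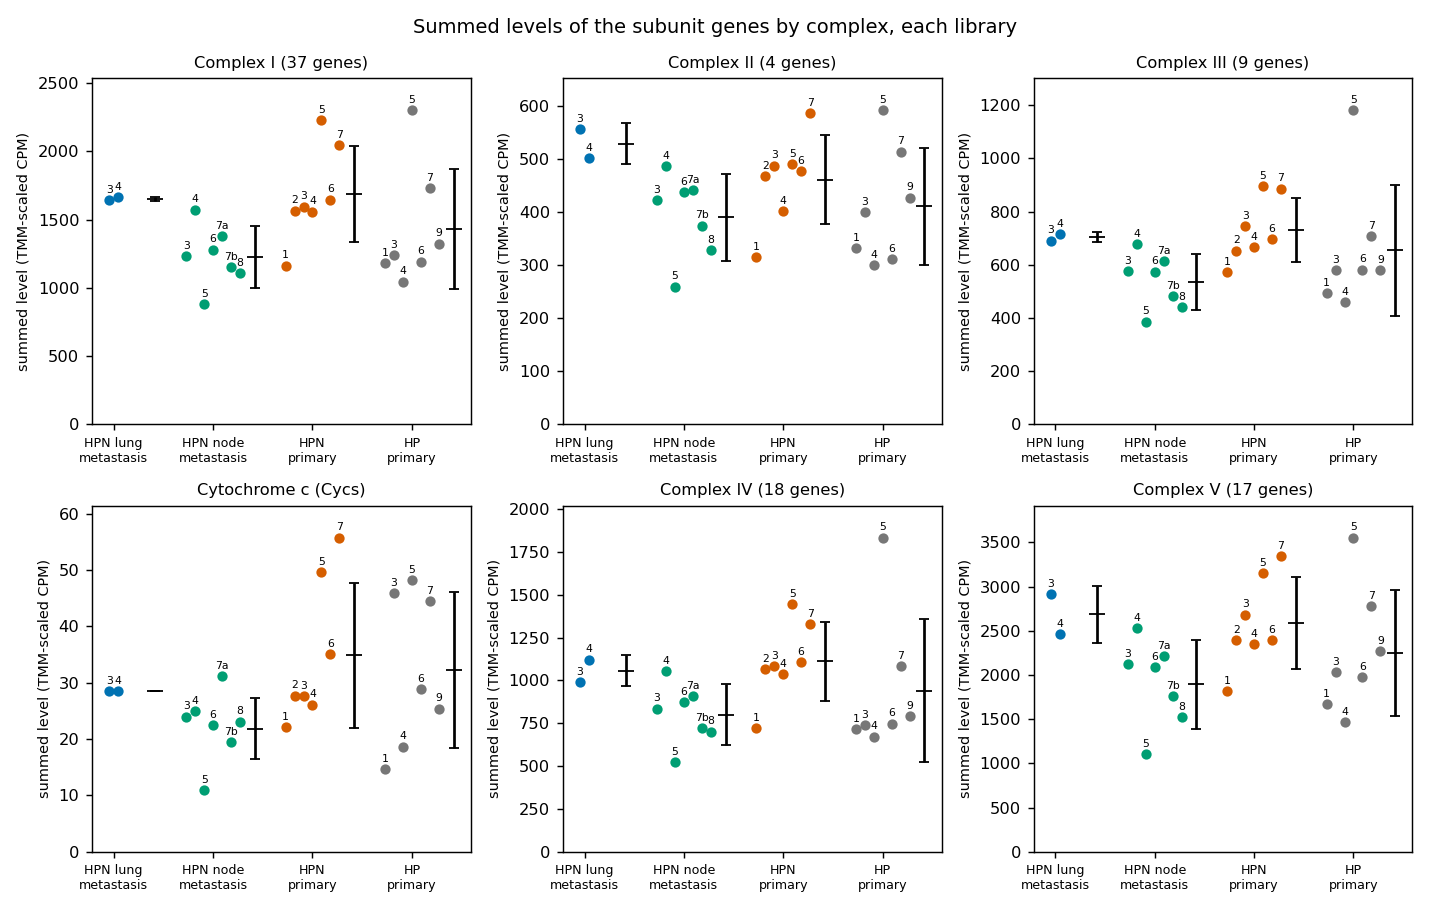
Summed TMM-scaled CPM (y axis, from 0) of the genes of each complex in every library (points with library numbers), by group, with the group mean and SD at the right of each group (nodes 7a and 7b averaged). Node 5 is the lowest node in every panel and HP primary 5 the highest HP primary, at 1834 CPM for complex IV.

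The promoters of some genes named below are shown first, because the genes are known to share control elements. They are examples and do not stand for all genes that fell. RefSeq promoter windows (250 bases before to 50 bases after the start, build GRCm38.p6) were matched by symbol for 67 of the 86 genes. Each window was searched on both strands for CCGGAAG (the core bound by ETS factors such as GABPA), AAGATGGC (YY1), AAGGTCA (estrogen-related receptors), TATAAA (the TATA box) and, for the factor NRF1, GCGCA followed by any base and GCGC. Matches are in capitals. Atp5k (chr5:108434350-108434649, minus strand) and Cox6a1 (chr5:115348909-115349208, minus strand), genes of complexes V and IV, are among those lower in nodes. Ndufs6 of complex I (chr13:73328433-73328732, minus strand) and Uqcrc1 of complex III (chr9:108936398-108936697, plus strand) are also among them. Sdha (chr13:74350191-74350490, minus strand) is the steadiest gene of the set. Cox8a (chr19:7217567-7217866, minus strand) and Cox8b (chr7:140900397-140900696, minus strand) are the general and the muscle form of the same complex IV subunit.
Atp5k: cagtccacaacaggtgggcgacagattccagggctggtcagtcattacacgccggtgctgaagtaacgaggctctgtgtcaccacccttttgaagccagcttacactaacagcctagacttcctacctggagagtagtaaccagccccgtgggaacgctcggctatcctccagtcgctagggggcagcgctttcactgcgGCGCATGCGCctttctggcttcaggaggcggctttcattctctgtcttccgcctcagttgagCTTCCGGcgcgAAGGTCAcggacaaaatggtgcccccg
Cox6a1: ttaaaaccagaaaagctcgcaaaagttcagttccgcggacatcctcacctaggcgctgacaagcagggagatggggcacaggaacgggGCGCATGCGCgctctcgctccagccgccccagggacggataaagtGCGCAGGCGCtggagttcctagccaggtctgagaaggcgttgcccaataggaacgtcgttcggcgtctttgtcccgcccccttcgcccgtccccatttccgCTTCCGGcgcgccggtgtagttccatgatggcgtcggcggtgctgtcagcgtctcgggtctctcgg
Ndufs6: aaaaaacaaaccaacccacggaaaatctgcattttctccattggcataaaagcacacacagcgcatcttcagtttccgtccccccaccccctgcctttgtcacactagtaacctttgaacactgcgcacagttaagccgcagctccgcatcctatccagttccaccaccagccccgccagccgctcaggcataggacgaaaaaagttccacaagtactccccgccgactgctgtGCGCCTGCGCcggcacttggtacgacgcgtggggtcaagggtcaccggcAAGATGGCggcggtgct
Uqcrc1: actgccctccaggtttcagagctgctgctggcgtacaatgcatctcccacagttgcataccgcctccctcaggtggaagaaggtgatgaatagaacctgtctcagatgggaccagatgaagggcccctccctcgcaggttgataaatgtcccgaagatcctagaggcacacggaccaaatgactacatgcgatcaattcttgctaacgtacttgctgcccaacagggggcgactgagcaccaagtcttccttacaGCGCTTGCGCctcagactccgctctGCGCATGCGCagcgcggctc
Sdha: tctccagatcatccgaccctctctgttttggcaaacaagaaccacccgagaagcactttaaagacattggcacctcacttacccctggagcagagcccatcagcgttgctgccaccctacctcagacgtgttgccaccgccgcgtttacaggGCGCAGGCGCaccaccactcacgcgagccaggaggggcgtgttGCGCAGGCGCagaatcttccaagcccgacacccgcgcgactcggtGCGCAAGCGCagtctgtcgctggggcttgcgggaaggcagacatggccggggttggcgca
Cox8a: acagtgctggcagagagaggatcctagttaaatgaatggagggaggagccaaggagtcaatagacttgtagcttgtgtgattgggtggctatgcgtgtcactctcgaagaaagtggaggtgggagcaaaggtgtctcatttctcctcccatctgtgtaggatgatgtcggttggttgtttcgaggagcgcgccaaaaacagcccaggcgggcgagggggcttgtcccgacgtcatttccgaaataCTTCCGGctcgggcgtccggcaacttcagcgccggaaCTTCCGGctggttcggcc
Cox8b: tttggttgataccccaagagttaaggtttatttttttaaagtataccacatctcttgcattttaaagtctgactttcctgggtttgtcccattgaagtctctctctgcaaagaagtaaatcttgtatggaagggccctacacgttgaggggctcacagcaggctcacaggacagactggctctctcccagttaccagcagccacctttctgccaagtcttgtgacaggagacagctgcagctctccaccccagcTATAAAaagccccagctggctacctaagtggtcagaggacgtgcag

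The NRF1 motif stood in 16 of 67 windows (23.9%), against 7.19% of 15572 windows of protein-coding genes. The ETS core stood in 15 windows (22.4%, against 12.8%), the YY1 motif in 8 (11.9%, against 3.45%), the AAGGTCA motif in 8 (11.9%, against 3.93%) and the TATA box in 7 (10.4%, against 12%). These shares describe letters in a window and nothing about binding. Among the windows shown, Sdha held the NRF1 motif at 3 places, Cox6a1 and Uqcrc1 at 2 and Ndufs6 and Atp5k at 1, while Cox8a held the ETS core at 2 places. The muscle form Cox8b held a TATA box and none of the other motifs. The matches in these 7 windows did not overlap each other. Sdha, with the smallest difference between nodes and primaries, thus held NRF1 matches, as did some genes that fell. Genes that fell and are not shown went both ways. Atp5j, Atp5g1 and Cox5b held 0 NRF1 matches, while Ndufa5, Ndufa8 and Ndufa11 held 1 each.

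Calls were made in the comparison of node metastases with HPN primaries. Of the 84 tested genes, 29 fell and 0 rose in nodes, where 9.81% of the 19152 genes tested fell and 12.7% rose. The log2 difference was negative for 80 of 84 genes with a median of -0.51, beside a median of -0.08 over all genes tested, of which 45.1% were positive. By complex, 12 of 37 genes of complex I fell, 0 of 4 of complex II, 5 of 9 of complex III, the cytochrome c gene, 4 of 16 tested genes of complex IV and 7 of 17 of complex V. The unadjusted p was under 0.05 for 54 of 84 genes, against 38.0% of all genes tested.

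**Figure D2:**
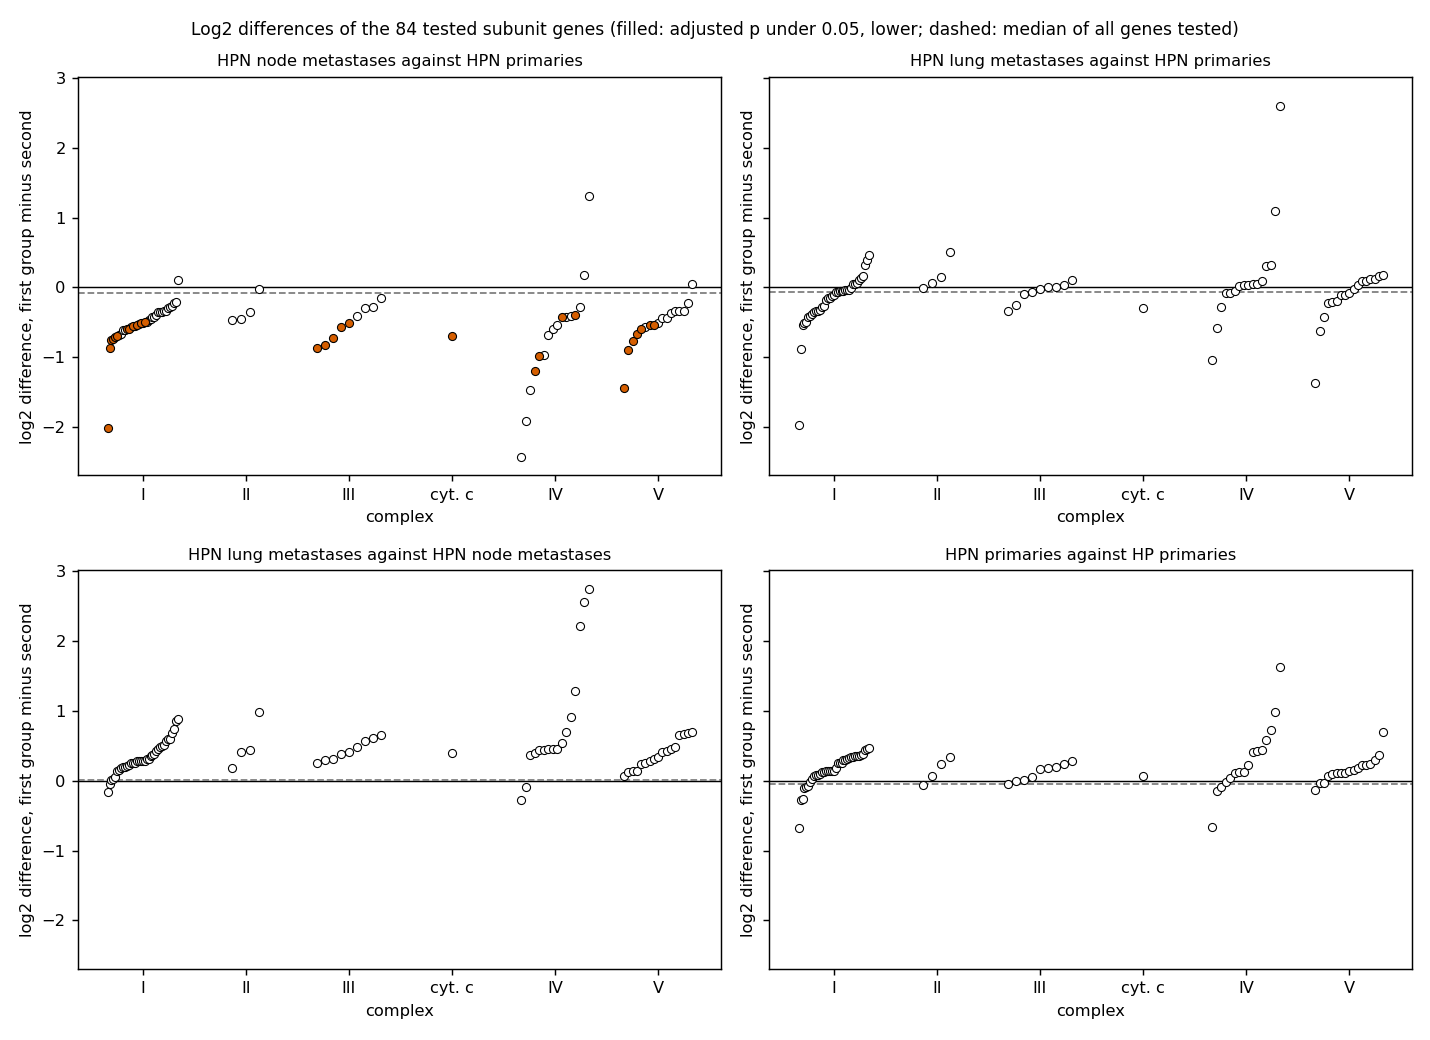
Log2 difference (y axis, first-named group minus second) of each of the 84 tested genes, by complex (x axis), in the 4 comparisons. Filled points passed an adjusted p of 0.05 by edgeR, which in these 4 fits only happened in the node comparison (29 genes, all lower in nodes), and the dashed line is the median of all genes tested.

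Atp5j, Atp5g1, Ndufs6 and the small subunits of complexes I and III named below were chosen for description after their values were seen. The lowest adjusted p belonged to Atp5j, a peripheral stalk subunit (coupling factor) of ATP synthase. It had a lowest, median and highest level of 34.2, 43.0 and 55.2 CPM in nodes, against 49.5, 62.2 and 74.4 CPM in HPN primaries. The log2 difference was -0.54 (SE 0.12, adjusted p = 0.00649 by edgeR), and the ranges overlapped. Atp5g1 encodes the proton-carrying ring subunit c, with 21.1, 33.1 and 48.8 CPM in nodes, against 49.0, 56.0 and 79.0 CPM in HPN primaries. Every node thus lay below every HPN primary, which held for Atp5g1 alone of the 84 genes and for 0.752% of all genes tested. The log2 difference of Atp5g1 was -0.77 (SE 0.18, edgeR adjusted p = 0.00948). No gene of the 84 had every node above every primary, against 5.16% of all genes tested.

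Atp5k, subunit e of ATP synthase, whose promoter is shown above, had the largest difference of complex V. It lay at 4.48, 5.53 and 7.41 CPM (lowest, median, highest) in nodes, against 6.04, 9.17 and 39.1 CPM in HPN primaries, a log2 difference of -1.43 (SE 0.43, edgeR adjusted p = 0.0275). HPN primary 5 gave the 39.1 CPM, and 1 pseudogene carries the name of Atp5k. Atp5j2, subunit f, had a log2 difference of -0.90 (SE 0.28) and reached 95.6 CPM in the same HPN primary. Atp5o, Atp5e and Atp5d, subunits of the stalks, fell as well. The catalytic pair did not pass by edgeR: Atp5b had 270.0, 675.1 and 853.8 CPM in nodes, against 554, 755 and 1183 CPM in HPN primaries (log2 difference -0.51, edgeR adjusted p = 0.136), and Atp5a1 a log2 difference of -0.36 (edgeR adjusted p = 0.217). Limma voom called Atp5b (-0.54 on the log2 scale, adjusted p = 0.0492).

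In complex IV the regulatory subunit gene Cox5b stood at 16.8, 30.5 and 53.1 CPM in nodes, against 34.9, 58.5 and 145.9 CPM in HPN primaries, a log2 difference of -1.20 (SE 0.32, edgeR adjusted p = 0.0174). Cox6a1, the general form of subunit VIa, stood at 32.4, 73.2 and 87.3 CPM in nodes, against 58.8, 122.7 and 201.3 CPM in HPN primaries (log2 difference -0.98, SE 0.27, edgeR adjusted p = 0.0183). The ranges of both genes overlapped between the groups. Cox5a (log2 difference -0.43) and Cox6c (-0.39) also fell. Cox4i1, Cox8a, Cox7a2 and Cox6b1, general forms of other subunits, had log2 differences of -0.40 to -0.68 and did not pass by edgeR. Limma voom called all 4 (adjusted p of 0.0161 to 0.0372), and DESeq2 called Cox7a2 (adjusted p = 0.0332).

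The cytochrome genes Cyc1 and Cycs were both lower in nodes. Cyc1, the cytochrome c1 of complex III, had 37.9, 56.0 and 66.7 CPM in nodes, against 64.5, 75.5 and 106.3 CPM in HPN primaries (log2 difference -0.57, SE 0.15, edgeR adjusted p = 0.017). Cycs had a log2 difference of -0.69 (SE 0.24, edgeR adjusted p = 0.0484), with 10.99 CPM in node 5 and 19.5 CPM or more in the other nodes. Of 28 alternative fits 12 called Cycs, and 2 pseudogenes carry its name. The other falling genes of complex III were the core protein gene Uqcrc1 (-0.50) and the small subunits Uqcr10 (-0.72), Uqcr11 (-0.87) and Uqcrq (-0.82 on the log2 scale). Uqcrfs1, the Rieske iron-sulfur protein, had a log2 difference of -0.29 (edgeR adjusted p = 0.189).

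Of the 12 genes of complex I that fell, Ndufs8 is a core subunit and the others are accessory or related proteins. Ndufa8 (log2 difference -0.59), Ndufa11 (-0.86), Ndufa5 (-0.73), Ndufb9 (-0.75) and Ndufa13 (-0.71) led by adjusted p. Ndufs6, a zinc-binding accessory subunit, stood at 11.9, 15.01 and 20.6 CPM in nodes, against 17.03, 22.5 and 26.4 CPM in HPN primaries (log2 difference -0.49, SE 0.15, edgeR adjusted p = 0.0259). Ndufb9 shares 19.5% of its exonic bases with another gene on its strand, so its count is less certain. The core genes Ndufs1 and Ndufv1 did not pass by edgeR, with log2 differences of -0.21 and -0.51, whereas limma voom called Ndufv1 (-0.55, adjusted p = 0.0214). Ndufa4l2 had the largest difference of complex I at -2.02 (SE 0.68, edgeR adjusted p = 0.0463), and its levels are described with the isoforms.

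No gene of complex II passed by edgeR. Sdha stood at 135.3, 191.6 and 213.4 CPM in nodes, against 146.6, 178.7 and 237.7 CPM in HPN primaries, a log2 difference of -0.03 (SE 0.13, edgeR adjusted p = 0.895). Sdhb, Sdhc and Sdhd had differences of -0.45, -0.47 and -0.35 on the log2 scale by edgeR. Limma voom called Sdhc (-0.58, adjusted p = 0.0293). With the mean log2 level of the skeletal muscle markers as a covariate, edgeR called Sdhd (-0.64, adjusted p = 0.0270). Whether complex II differs from the other complexes was not tested. The 4 genes with a positive difference were Cox4i2 (1.31, SE 0.70), Cox7a2l (0.18), Ndufb2 (0.11) and Atp5s (0.05), and none of these passed by edgeR.

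The node result rested in part on single samples. With the animal number as a block, so that the difference rests on animals with more than 1 tumour, 0 of 84 genes passed, where 1274 of 19152 genes did, and the median log2 difference was -0.56. Of the libraries compared, nodes 7a, 7b and 8 and HPN primary 7 have an entry for reads of low alignment quality. Without these 4 libraries 0 of 84 passed as well, where 1542 of 18820 genes did, and 27 of 84 had an unadjusted p under 0.05, as did 4836 of the 18820. Without node 5, 5 passed, where 2731 of all genes did, and without HPN primary 1, 50 passed, where 5333 of all genes did. The 5 were Atp5j, Atp5g1, Cox6a1, Cox5b and Cyc1, which passed whichever of the 15 samples was left out. In the pairs themselves, the summed level was lower in the node than in the primary of the same number for 4 of 5 animals. It was 5212 against 6620 CPM in animal 3, 3161 against 8264 CPM in animal 5, 5278 against 6354 CPM in animal 6, and 5584 and 4513 CPM in nodes 7a and 7b against 8241 CPM in primary 7. Animal 4 had 6345 CPM in its node, against 6041 CPM in its primary.

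**Figure D3:**
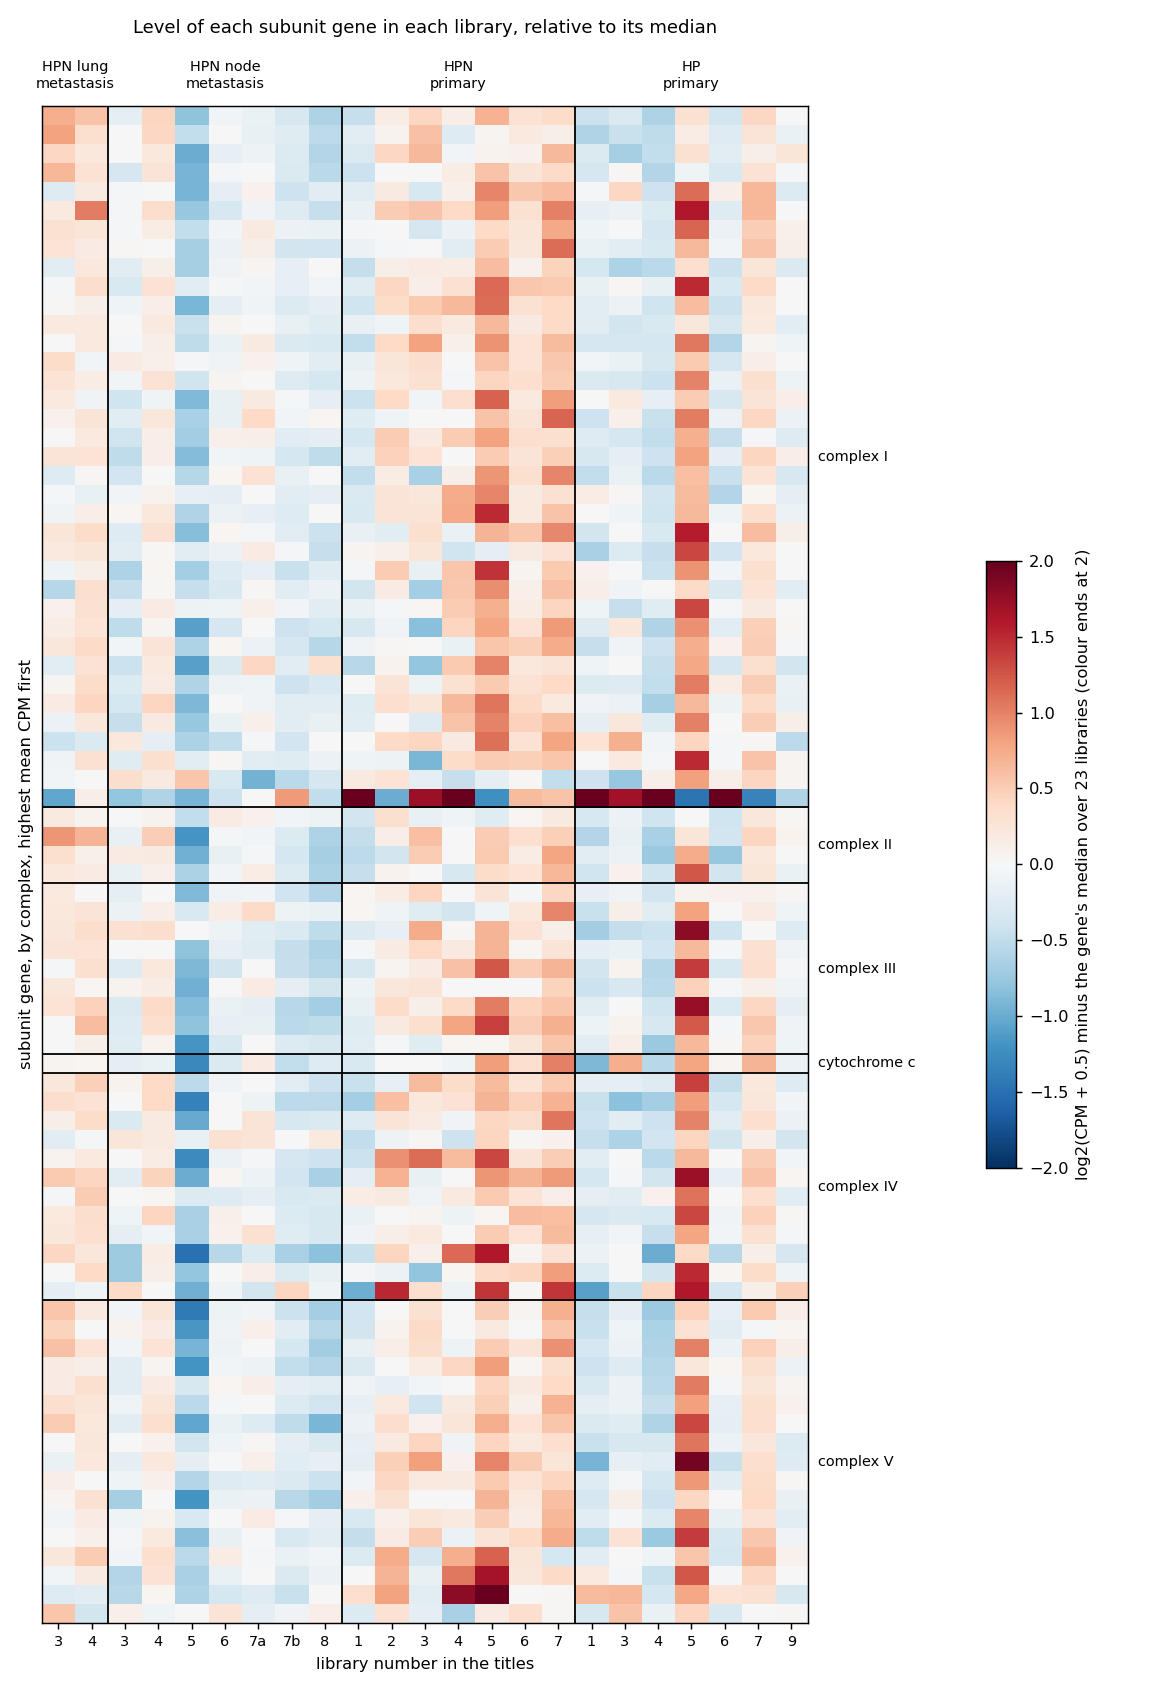
Level of each of the 80 genes with a mean of at least 3 CPM (rows, by complex) in each library (columns, by group), as log2(CPM + 0.5) minus the gene's own median over 23 libraries. Node 5 is the lowest of all libraries for 56 of the 80 genes, HP primary 5 the highest for 39 and HPN primary 5 for 22. Over 12434 protein-coding genes these shares are 21.1%, 7.74% and 8.22%.

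Markers of other cells also differed between nodes and HPN primaries. B and T cell markers summed to 210.9 CPM in node 4, 498.9 CPM in node 3 and 1628 CPM in node 5. Subunit genes summed there to 6345, 5212 and 3161 CPM. Nodes 6, 7a, 7b and 8 had 1372, 1297, 963.2 and 1229 CPM of B and T cell markers. Their subunit sums were 5278, 5584, 4513 and 4125 CPM, so nodes 6 and 7a lay above node 3 in subunit genes. HPN primaries had 4.35 to 25.7 CPM of B and T cell markers. The melanocyte markers were highest in node 4 at 43420 CPM and lowest in node 5 at 4507 CPM, against 6202 to 61470 CPM in HPN primaries. All 5 B cell and all 6 T cell markers rose in nodes, all 8 keratinocyte and all 12 skeletal muscle markers fell, and 0 of 7 melanocyte markers passed by edgeR. Each marker covariate was the mean log2 CPM of the markers in a list, not their sum. With the keratinocyte covariate 35 of 84 subunit genes passed, 26 of them among the 29. With the skeletal muscle covariate 35 passed, 19 of them among the 29. The calls over all genes in these fits are not given here. In the fit with the muscle covariate Cyc1 (edgeR adjusted p = 0.0603), Cox5b (0.0681), Atp5j2 (0.0944) and Atp5k (0.179) were no longer called. The part of lymphocytes in the result was not tested.

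**Figure D4:**
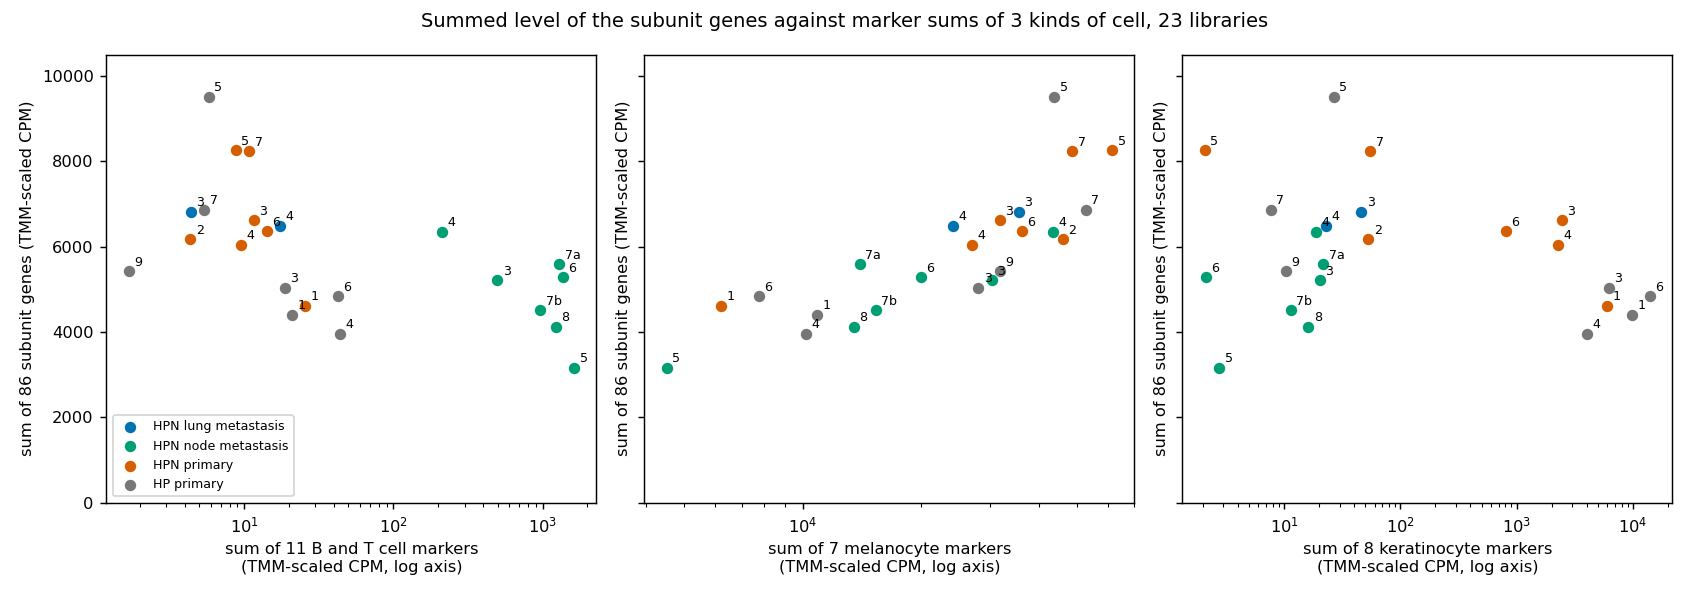
Summed level of the 86 genes (y axis, from 0) against the summed markers of B and T cells, melanocytes and keratinocytes (x axes, log scale) in 23 libraries, with library numbers. HPN primaries 5 and 7 and HP primary 5 have high sums of both kinds, HPN primary 2 has 46070 CPM of melanocyte markers with 6172 CPM of subunit genes, and node 5, with the lowest melanocyte sum, has the lowest.

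The melanocyte sum and the subunit genes can be set side by side in the primaries. HPN primaries 5 and 7 had 61470 and 48670 CPM of melanocyte markers with 8264 and 8241 CPM of subunit genes, HPN primary 2 had 46070 and 6172 CPM, and HPN primary 1 had 6202 and 4611 CPM. HP primaries 5 and 7 had 43780 and 52640 CPM of melanocyte markers with 9516 and 6863 CPM of subunit genes, while HP primaries 4, 6 and 1 had 10190, 7735 and 10900 CPM with 3962, 4837 and 4405 CPM. Both sums are shares of the same libraries, and no test was made of the relation.

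Between lung metastases and HPN primaries, of 84 genes 0 passed in either direction by edgeR, where 0.251% of all genes rose and 0.0157% fell. At an unadjusted p under 0.05 there were 2, against 7.28% of all genes tested, and DESeq2 and limma voom also called 0. The median log2 difference was -0.06 (33 of 84 positive), beside -0.06 for all genes tested (43.5% positive). The 2 genes were Ndufa5, an accessory subunit of complex I, and Cox4i2. Ndufa5 had 8.75 and 9.65 CPM in the lungs, against 11.9, 15.7 and 26.1 CPM (lowest, median, highest) in HPN primaries, so both lungs lay below all primaries, as for 1.67% of all genes tested (log2 difference -0.89, SE 0.31, edgeR adjusted p = 0.505). Sdhc, a membrane anchor of complex II, had 136.2 and 156.7 CPM in the lungs, against 61.1, 107.1 and 130.1 CPM in HPN primaries, above all of them, as for 2.28% of all genes tested (log2 difference 0.51, SE 0.32, edgeR adjusted p = 0.8).

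The comparison of lung with node metastases shares its samples with both comparisons above. The log2 difference was positive for 80 of 84 genes, with a median of 0.39 beside 0.02 for all genes tested (50.9% positive). By edgeR 0 of 84 passed, where 1.96% of all genes rose and 3.09% fell in lungs, and 15 had an unadjusted p under 0.05 (22.9% of all genes). DESeq2 called 2, among them Sdhc (adjusted p = 0.0492). Both lungs lay above all nodes for 17 of 84 genes, against 9.0% of all genes tested, and both lay below all nodes for 0, against 13.3%. Among the 17 was Sdhc, with 136.2 and 156.7 CPM in the lungs, against 37.2, 77.1 and 119.8 CPM in the nodes (log2 difference 0.98, SE 0.32, edgeR adjusted p = 0.0849). B and T cell markers were lower in lungs than in nodes (5 of 5 and 5 of 6 passed by edgeR), while 4 of 5 tested heart and 4 of 4 tested alveolar markers were higher, with their levels in lung 4, and the part of these cells in the difference was not tested. Leaving out node 4, the highest node for 52 of the 80 expressed genes and for 26.2% of 12434 protein-coding genes, gave 7 calls, where 2017 of all genes were called.

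Nme genotype was compared between HPN and HP primaries. By edgeR 0 of 84 genes passed in either direction, as for the 16578 genes tested (0.0% called). DESeq2 and limma voom also called 0 of these genes. The log2 difference was positive for 67 of 84 genes with a median of 0.15, beside 42.5% positive and a median of -0.05 over all genes tested, and 5 genes had an unadjusted p under 0.05 (2.88% of all genes tested). These 5 were Ndufs7, Cox6a1, Cox5b, Ndufa13 and Ndufs8. Ndufs7, an iron-sulfur core subunit of complex I, stood at 36.3, 46.6 and 64.1 CPM in HPN primaries, against 31.2, 34.9 and 47.5 CPM in HP primaries (log2 difference 0.34, SE 0.13, edgeR adjusted p = 0.951). Cox5b stood at 34.9, 58.5 and 145.9 CPM in HPN primaries, against 23.8, 44.4 and 63.3 CPM in HP primaries (log2 difference 0.73, SE 0.30, edgeR adjusted p = 0.951). Both genes overlapped between genotypes.

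The size of the genotype difference depended on single libraries: the median log2 difference ran from 0.08 without HPN primary 5 to 0.33 without HP primary 5. HP primary 5 was the highest HP primary for 68 of 80 expressed genes, where it was the highest for 19.2% of 12434 protein-coding genes. Uqcrh had 244.3 CPM there and at most 70.2 CPM in the other HP primaries, Atp5e had 229.9 and at most 76.2 CPM, and Cox4i1 had 440.9 and at most 197.8 CPM. Without HP primary 5, 80 of 84 genes were positive and 29 had an unadjusted p under 0.05, as did 797 of 17044 genes tested, with 0 called. Without HPN primary 5, 58 of 84 were positive and 0 had an unadjusted p under 0.05, against 235 of 16826 genes tested. In HP primary 5 short transcripts stood high in general. Relative to the median of the other 6 HP primaries, subunit genes with a transcript under 700 bases had a median log2 difference of 1.22 (29 genes) and all coding genes of that length 0.73. From 700 to 1199 bases of transcript the medians were 0.99 for subunit genes and 0.50 for all coding genes, and from 1200 bases 0.64 and 0.05. Keratinocyte markers were also unequal between libraries within each genotype. Their sum ran from 2.07 CPM in HPN primary 5 to 6009 CPM in HPN primary 1. It ran from 7.69 CPM in HP primary 7 to 14080 CPM in HP primary 6. Between genotypes 0 of 8 of these markers passed by edgeR, with 0 positive and a median log2 difference of -1.21 for the markers. With their mean log2 level as a covariate edgeR called 0 subunit genes. The median log2 difference between genotypes was then 0.125 with 66 of 84 genes positive.

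Several complex IV genes are tissue-restricted forms. Cox6a2, Cox7a1 and Cox8b are the heart and skeletal muscle forms of subunits that other cells make from Cox6a1, Cox7a2 and Cox8a. Cox6a2 had 0.0643 and 5.93 CPM in lungs 3 and 4. It had 0.146, 0.308 and 0.808 CPM in nodes (lowest, median, highest), 0.0506, 0.737 and 10.5 CPM in HPN primaries and 0.0734, 0.175 and 2.34 CPM in HP primaries. HPN primary 1 gave the 10.5 CPM, where Cox6a2 made up 13% of the Cox6a2 and Cox6a1 pair per kilobase, against 0.0381% in HPN primary 7. Cox8b stood at 0 counts in lung 3 and at 2.9 CPM in lung 4, and at 6.07 CPM in HPN primary 1. Cox7a1 had 5.45 CPM in lung 4 and 4.57 CPM in HPN primary 1, and 1.96 CPM at most in the other libraries. None of the 3 genes passed in any comparison by edgeR, while DESeq2 called Cox6a2 in nodes (log2 difference -2.48, adjusted p = 0.0438). Their log2 differences in nodes were -2.43 (SE 1.12), -1.46 (SE 0.69) and -1.91 (SE 1.18) for Cox6a2, Cox7a1 and Cox8b.

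The libraries highest in these forms held muscle markers. The 12 skeletal muscle markers summed to 5104 CPM in HPN primary 1, 2147 CPM in HP primary 4, 1323 CPM in HPN primary 4 and 1098 CPM in HP primary 6, and to at most 457.6 CPM elsewhere. In lung 4 the skeletal sum was 26.3 CPM and the heart sum 759.9 CPM, led by the cardiac myosin gene Myh6 at 390.8 CPM with Actc1 at 150.3 CPM and the atrial peptide gene Nppa at 76.9 CPM, while in lung 3 all 3 were at 0. Cox8b and Cox6a2 were thus high both with skeletal and with heart markers. With the mean log2 level of the skeletal muscle markers as a covariate, both node differences changed sign. They were 1.85 for Cox6a2 and 0.79 for Cox8b on the log2 scale.

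**Figure D5:**
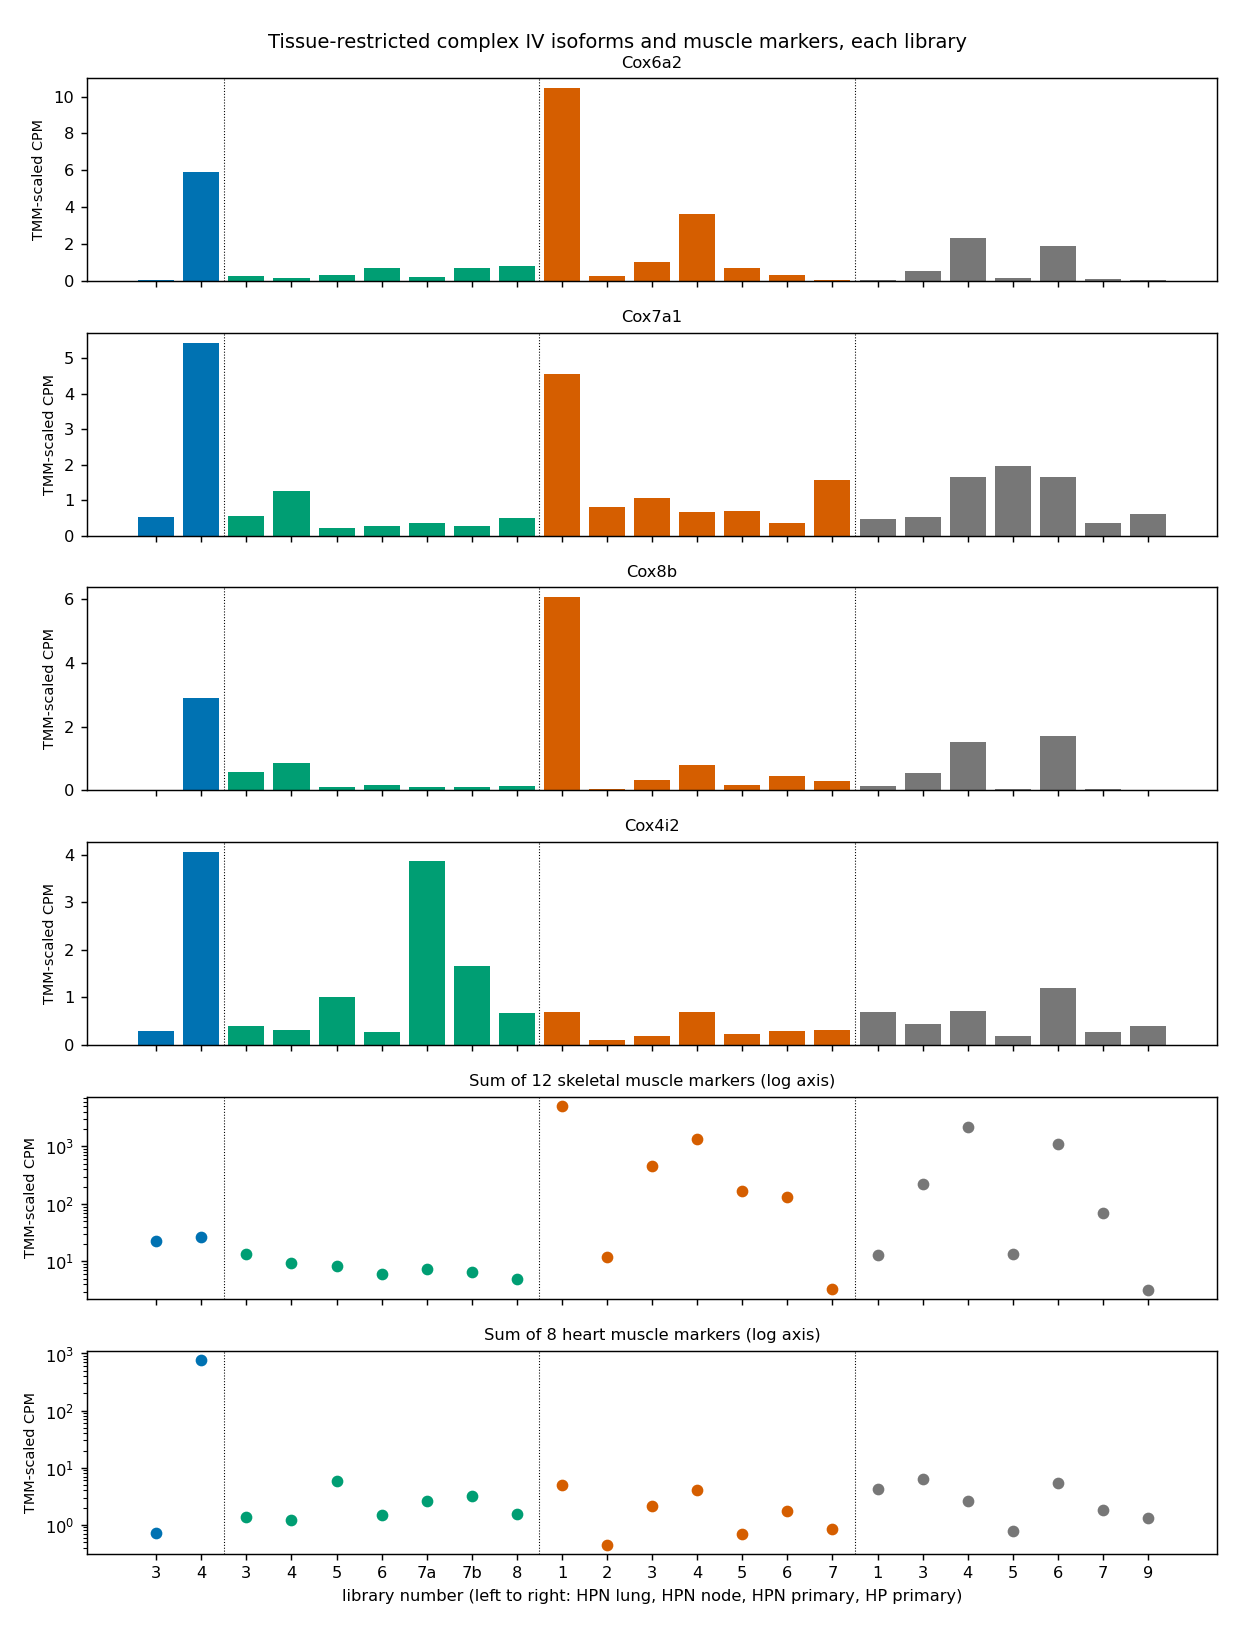
Level of 4 tissue-restricted complex IV genes (bars, CPM) and the summed skeletal and heart muscle markers (points, log axis) in each library. Cox6a2, Cox7a1 and Cox8b peak in lung 4, which has 759.9 CPM of heart markers, and in HPN primary 1, which has 5104 CPM of skeletal muscle markers.

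Cox4i2, a form of subunit IV known from lung and induced by low oxygen, had another pattern. It had 0.289 CPM in lung 3 and 4.07 CPM in lung 4. Nodes 7a and 7b, from one animal, had 3.87 and 1.66 CPM, and the other nodes 0.268 to 1.01 CPM. HPN primaries ranged from 0.104 to 0.698 CPM and HP primaries from 0.175 to 1.19 CPM. The log2 difference between lungs and HPN primaries was 2.59 (SE 0.89, edgeR adjusted p = 0.497) and rested on lung 4: without it the value was -0.31. Lung 4 also held the alveolar markers, whose part in this value was not tested. Cox6b2, a testis form, was highest in HP primary 5 (7.93 CPM) and in HPN primaries 2, 5 and 7 (6.94 to 7.37 CPM), and lay between 0.807 and 3.36 CPM elsewhere.

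Ndufa4l2 is known to be induced by HIF-1 and to restrain complex I activity. It had 1.25 and 3.48 CPM in the lungs, 1.41, 2.08 and 6.05 CPM in nodes, 1.05, 5.12 and 24.6 CPM in HPN primaries and 0.807, 11.1 and 35.2 CPM in HP primaries. It lay at 11.4 to 24.6 CPM in HPN primaries 1, 3 and 4 and at 11.1 to 35.2 CPM in HP primaries 1, 3, 4 and 6, the 7 primaries with high keratinocyte markers. The other 7 primaries had 0.807 to 5.12 CPM. In HP primary 6 it made up 27.9% of the Ndufa4l2 and Ndufa4 pair per kilobase. With the mean log2 level of the keratinocyte markers as a covariate its node difference was 0.29 on the log2 scale, a change of sign from -2.02. With the skeletal muscle covariate it was -0.54 (edgeR adjusted p = 0.556).

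Genes that build, regulate or feed the complexes were counted beside them by edgeR, with the 9.81% of all genes that fell and 12.7% that rose in nodes as background. Of 44 assembly factors, 0 rose and 1 fell in nodes against HPN primaries, with a median log2 difference of -0.06. It was Uqcc2, which helps build complex III (log2 difference -0.83, SE 0.23, edgeR adjusted p = 0.0196). Of 19 biogenesis regulators, 2 rose and 0 fell: the mitochondrial DNA packaging factor gene Tfam (log2 difference 0.62, SE 0.16, edgeR adjusted p = 0.0123) and Gabpb1, a partner of GABPA (0.70, SE 0.20, edgeR adjusted p = 0.0207). Of 17 genes of the TCA cycle, 2 fell in nodes, among them Mdh2 (-0.69 on the log2 scale), and 0 rose, with a median log2 difference of -0.28. The counts of calls in the biogenesis and TCA cycle lists lay near the background. In sign, 1 of 17 TCA cycle genes was positive in nodes, against 45.1% of all genes tested. In lungs against nodes 17 of 17 were positive, against 50.9% of all genes tested. Of 19 glycolysis genes 7 fell and 0 rose, with a median of -0.96. In the other 3 comparisons 0 genes of these 4 lists passed by edgeR. Ppargc1a had 124.0 CPM in lung 3 and 20.4 CPM in lung 4. It had 8.71, 18.7 and 145.0 CPM in nodes, 11.7, 44.0 and 82.6 CPM in HPN primaries and 15.8, 40.4 and 115.3 CPM in HP primaries, and did not pass in any comparison by edgeR.

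Transcripts of the 13 subunits encoded by mitochondrial DNA summed to 5363 and 9138 CPM in lungs. The lowest, median and highest sums were 6015, 7405 and 11030 CPM in nodes, 2024, 9392 and 13990 CPM in HPN primaries and 7067, 8062 and 12500 CPM in HP primaries. Of the 13 genes 0 passed by edgeR in any comparison (11 were tested between genotypes), and in nodes 1 of 13 had a positive difference, with a median log2 difference of -0.55. The sum did not follow the nuclear genes from library to library: node 5, lowest for the nuclear set, had 8780 CPM and HPN primary 3, lowest here, had 6620 CPM of nuclear subunit genes. mt-Co1, the catalytic subunit of complex IV, ranged from 1024 to 7895 CPM in HPN primaries, whereas mt-Co2 and mt-Co3 reached at most 7.75 and 10.1 CPM in any library. The sum over the 13 genes thus held almost nothing of mt-Co2 and mt-Co3. Reads without a unique alignment, 10.7 to 21.0% of entries per library, were not counted to genes. Their part in these low counts was not tested, so the counts need not reflect transcript levels.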

How the data were processed

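Counts of reads per Ensembl gene were deposited by the authors for each of 23 libraries, without normalization. Per the labels' protocols, total RNA was taken up on columns and made into directional libraries. Per the submitters' processing notes, bcl2fastq 1.8.4, STAR 2.5.3a and the build mm9 were used. For the annotation, the counter version and the strand setting, nothing is stated in the labels. Entries that name no gene were kept out of library sizes: gene entries held 25.0 to 50.8% of all entries per library, and the subunit genes 0.375 to 0.94% of gene counts.

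Symbols, lengths and overlaps came from GENCODE vM21, which matched 32897 of 37620 identifiers. The members, gene lists and marker lists were chosen with earlier results of these data known. Genes were filtered with filterByExpr, TMM-scaled and tested by edgeR 4.0.16 (R 4.3.3; robust quasi-likelihood fit, Benjamini-Hochberg, threshold 0.05) in 14 primaries for genotype and in 15 HPN samples, with nodes 7a and 7b summed, for the sites. The SE of a log2 difference is its size divided by the root of the F statistic. The scripts were tested on simulated counts. Alternatives were DESeq2 1.42.0, limma 3.58.1 voom, other filters, a fit over all groups, a term for or removal of the libraries with low-quality entries, marker covariates, an animal block and leaving out each sample. Named genes were isoform pairs, core subunits, the 5 called genes with the largest differences each way (or the 3 of smallest p), the 3 highest and the lowest per kilobase of each complex, and up to 3 of each other list by p. Other names are given as chosen after their values were seen. Some genes that this rule names are not reported here.

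Numbers in HPN titles were read as animals, so same-numbered HPN tumours were treated as paired in the blocked fit. Deviations of same-numbered node and primary samples correlated at -0.13 to 0.31 over 5 numbers. Only node 6 correlated more with the primary of its own number than with every other HPN primary, so the reading as animals remains an assumption. Lists of adipocyte, pericyte, alveolar, heart and skeletal muscle, keratinocyte, melanocyte and lymphocyte markers and of assembly, biogenesis, TCA cycle and glycolysis genes were counted in the same fits.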

Additional observations from a re-analysis of the deposited data

Results flagged for a closer look

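In 10 of 39 sets of values by group, 1 library lay far from all others of its group by Dixon's test, and chance alone would mark about 1 in 20 such sets. HP primary 5 held 1183 CPM of complex III genes and 1834 CPM of complex IV genes, and 7.93 CPM of the testis form Cox6b2, each far above the other HP primaries. Node 5 held 10.99 CPM of the cytochrome c gene Cycs, far below the other nodes. HPN primary 1 held 10.46 CPM of Cox6a2, 4.569 CPM of Cox7a1 and 6.069 CPM of Cox8b, the muscle forms, far above the other HPN primaries. Node 4 held 1.254 CPM of Cox7a1. The mean of nodes 7a and 7b was 2.764 CPM for Cox4i2 and 4.581 CPM for Ndufa4l2, far above the other nodes.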

How the results depend on the processing

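For node metastases against HPN primaries, where edgeR called 29 of 84 subunit genes and 4313 of all genes, limma voom called 50 and 6519. Without a filter 15 subunit genes were called, with all 4 groups in one fit 16, with a term for the libraries that have low-quality entries 19, and without those libraries 0 (1542 of all genes). With the replicate block 0 subunit genes and 1274 of all genes were called. Leaving out 1 sample at a time gave 5 to 50 subunit genes and 2731 to 5333 of all genes. The count was 14, 11, 17 and 9 without node 3, 6, 7 or 8, and 19 and 15 without HPN primary 4 or 5. Calls over all genes moved between fits as well and are given here for only some. Changes in the subunit counts were not set apart from them.

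For lung metastases against HPN primaries, 51 of all genes were called. The count was 358 by DESeq2, 0 by limma voom, 138 without a filter, 12 with a filter of over 1 CPM, 89 with all groups, 1 without the libraries with low-quality entries, 2 with the keratinocyte covariate and 0 with the replicate block. It was 0 to 393 when leaving out 1 sample. For lung against node metastases, 966 genes were called, and 2467 by DESeq2, 263 with the low-quality term, 0 without those libraries, 1864 with the skeletal muscle covariate and 0 with the block. Leaving out 1 sample gave 0 to 2017 genes and 0 to 7 subunit genes. DESeq2 called 2 subunit genes there and the muscle covariate 1. Between genotypes the replicate block, which pairs different animals, called 0 subunit genes with a median log2 difference of 0.17 (72 of 84 positive).

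Log2 differences changed sign for a few genes that did not pass, and for Ndufa4l2, and the cause was not tested. In nodes against primaries, Ndufb2 was -0.217 by limma voom and -0.019 to 0.223 when leaving out 1 sample. Sdha was 0.001 without the low-quality libraries and -0.121 to 0.063 when leaving out 1 sample (0.036 and 0.003 without HPN primary 2 or 7). With the keratinocyte covariate Cox8b was 0.843, Ndufa4l2 0.294 and Cox7a2l -0.031, and with the muscle covariate Cox8b was 0.792 and Cox6a2 1.853. Cox4i2 in lungs against primaries ran from -0.305 without lung 4 to 3.497 without lung 3. Cox6b2 in lungs against nodes was 0.061 with the low-quality term, 0.191 and 0.106 with the keratinocyte and muscle covariates, 0.015 with the block and, when leaving out 1 sample, -0.25 to 0.039. Ndufb4 between genotypes ran from -0.349 to 0.002, the upper end without HP primary 5.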

Other observations

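The 7 glycolysis genes that fell in nodes against HPN primaries were Hk1, Pfkm, Aldoa, Tpi1, Gapdh, Pkm and Ldha, which span the pathway between hexokinase and lactate dehydrogenase. Their log2 differences ran from -1.57 for Pfkm (SE 0.43, adjusted p = 0.0177 by edgeR) to -1.09 for Hk1 (SE 0.30, edgeR adjusted p = 0.02). Between HPN and HP primaries 18 of 19 glycolysis genes had a positive difference, with a median of 0.42 and 0 calls.

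Markers of other cells were counted in the same fits. In lungs against HPN primaries 4 of 5 tested heart markers and 3 of 4 tested alveolar markers rose, and the levels lay in lung 4. In nodes against HPN primaries 1 of 5 brown adipocyte markers rose (Ucp1, log2 difference 3.69) and 1 fell (Elovl3, -6.93), while 0 of 5 white adipocyte markers passed. The pericyte genes split there, with Rgs5 higher (1.87) and Cspg4 lower (-1.62 on the log2 scale) in nodes.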
